A study of Mus musculus with 12 samples.

Results

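The renin, secretin and endothelin genes are 7 genes of small secreted peptides, the enzymes that release them and a receptor: Ren1, Ren2, Agt, Sct, Edn1, Edn2 and Ednrb. All probes that the array design names for them were taken, which gave 9 of the 41174 probes on the array and 7 of the 20058 genes tested. The genes were chosen by their log2 ratios, those of Ren2 in Dicer-null over wild type and of Sct and Edn2 in the lines labelled as overexpressing foremost, with the ratios of all 7 in the comparisons below known, so those ratios are described here with no test, and no count of them supports anything. Each probe is given apart, since probes of Ren1 and Ren2 may cross-hybridise.

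RNA of mouse embryonic stem (ES) cell lines was hybridised to 12 Agilent 2-colour expression arrays. The RNAs were those of Dicer-null cells labelled as overexpressing Dnmt1, a DNA methyltransferase, of Dicer-null cells labelled as overexpressing Dnmt3a and Dnmt3b, of the Dicer-null cells themselves, and of wild-type ES cells. The first 3 kinds came from each of 2 Dicer-null lines, 27G5 and 27H10, so all cells labelled as overexpressing also lack Dicer, the nuclease that makes microRNAs. Cells grew on gelatin with leukemia inhibitory factor and had no further treatment, per the labels, which give no age, strain or passage and no promoter for the genes named as overexpressed. The lines are called clones below, as the labels treat them as separate cultures, and the labels do not say that a line labelled as overexpressing was made more than 1 time per clone. Each pairing of RNAs was hybridised on 2 arrays with the dyes exchanged, which are 1 ratio, so every comparison holds 4 arrays and n = 2 clones. Log2 ratios are given as the first-named cells over their reference, and an SD is over the 2 clones unless stated.

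Renin is the protease that cuts angiotensinogen, the product of Agt, in the first and rate-limiting step towards angiotensin, the peptide that raises blood pressure. Mouse strains carry either a single renin gene, Ren1, or Ren1 together with its duplicate Ren2, whose product is abundant in the submandibular gland. Secretin is a gut hormone of the glucagon family that stimulates bicarbonate secretion by the pancreas. Endothelins are short vasoconstrictor peptides, and Ednrb, a G protein-coupled receptor, is known for its part in neural crest development. None of these genes is a standard marker of ES cells. Dnmt1, Dnmt3a and Dnmt3b methylate cytosine in CG dinucleotides, and CG-rich stretches are common in promoters.

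The sequences of the 3 renin probes are shown because the reading of Ren1 and Ren2 depends on what each can bind. Probe positions are on build mm7, taken from the coordinate column of the arrays with the lines labelled as overexpressing, and no gene annotation of that build was used here. Probe A_51_P316661 (Ren1) lies at chr1:133261002-133261061 on the plus strand and is listed in the array design under the accessions of both Ren1 and Ren2. The capitals mark a TAA stop codon reached with no earlier stop in its frame, so this stretch reads as the end of the coding sequence.
Ren1 A_51_P316661, bases 1 to 57 of 60: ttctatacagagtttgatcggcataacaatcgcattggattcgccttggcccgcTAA
Ren1 A_52_P544060, bases 1 to 30 of 60: caggctcagtgctgaatggggcgtattcac
Ren2 A_52_P192265, bases 1 to 30 of 60: caagccaagctggcactcttgggggccatt
The second Ren1 probe, A_52_P544060, lies at chr1:133255110-133255169 and is listed under Ren1 alone. The Ren2 probe, A_52_P192265, is listed under Ren2 alone but is placed at chr1:133261087-133261148, only 25 bases beyond the first Ren1 probe, where its 60 bases span 62 positions. The longest run shared by any pair of the 3 probes was 5 bases, so they read separate stretches of sequence. Their ratios are therefore given as those of renin transcripts, which these probes do not assign to Ren1 or Ren2.

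The promoters of Sct and Edn2 are shown because, of the 7 genes, these had the ratios furthest from 0 in the lines labelled as overexpressing a methyltransferase. The 250 bases before the RefSeq start (GRCm38.p6) are printed, with every CG dinucleotide in capitals. The promoter of Sct lies at chr7:141279134-141279383 on the minus strand and that of Edn2 at chr4:120160956-120161205 on the plus strand.
Sct: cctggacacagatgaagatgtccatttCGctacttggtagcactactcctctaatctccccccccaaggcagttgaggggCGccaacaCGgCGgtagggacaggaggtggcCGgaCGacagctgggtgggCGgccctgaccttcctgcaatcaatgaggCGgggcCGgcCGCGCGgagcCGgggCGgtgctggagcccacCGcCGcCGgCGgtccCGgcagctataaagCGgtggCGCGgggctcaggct
Edn2: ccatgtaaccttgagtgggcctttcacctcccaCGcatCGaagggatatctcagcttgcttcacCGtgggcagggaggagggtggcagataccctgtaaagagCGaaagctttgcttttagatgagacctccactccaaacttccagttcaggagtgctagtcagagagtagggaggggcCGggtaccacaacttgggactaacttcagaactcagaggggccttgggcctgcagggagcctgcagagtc
The search was for CG, which reads the same on both strands. The Sct stretch held 22, a number reached by 14.8% of the 32851 promoters in the table, and the Edn2 stretch held 5, reached by 55.6%. Ednrb had 11 (35.6%), Edn1 had 9 (40.3%), Ren1 had 1 (92.1%) and Agt had 0, against a median of 6 over all promoters. These are counts of letters, and methylation was not measured here.

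The arrays had median signals of 112 to 135 in the green channel and 234 to 334 in the red, and 61.4% to 68.6% of probes were well above background by the scanner software. The arrays with exchanged dyes correlated, once turned to 1 direction, at r = 0.85 and 0.91 across probes for Dicer-null over wild type in 27G5 and 27H10, and at 0.75 and 0.73 for Dnmt1 over Dicer-null. For Dnmt3a,3b over Dicer-null r was 0.38 in 27G5 and 0.68 in 27H10, the lowest of the 6 pairs. The arrays with labelled lines of 27G5 were on slide 1 and those of 27H10 on slide 2, where clone and slide cannot be told apart, and all arrays with wild-type RNA were on slide 3. Dicer1 fell in Dicer-null cells (log2 ratio -0.53 ± 0.04, adjusted p = 0.004, n = 2), and its other probe stood at -4.07, with the deleted exons unstated in the labels. Dnmt1 did not pass the test in the cells labelled as overexpressing it (0.27 ± 0.23, adjusted p = 0.111), where Dnmt3b fell by 1.06 ± 0.40 (adjusted p = 0.0308) and Dnmt3a by 1.34 ± 0.58 (adjusted p = 0.0406). In the cells labelled as overexpressing Dnmt3a and Dnmt3b, Dnmt3b fell (-1.04 ± 0.59, adjusted p = 0.0341), against the label, and Dnmt3a stood at -1.03 ± 0.92 (adjusted p = 0.0826). The other probes of Dnmt3a gave -1.04 to 0.05 in the first of these comparisons and -0.72 to 0.20 in the second. Those lines are therefore called "labelled Dnmt1" and "labelled Dnmt3a,3b". All 8 ES cell markers listed, among them Pou5f1 and Nanog, were well above background in each of the 7 RNAs.

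Across the members, 3 of 7 genes were called higher and 2 lower in Dicer-null over wild type, where 20.4% of all genes tested were called higher and 20.1% lower. In labelled Dnmt1 over Dicer-null, Sct was called higher and Edn2 lower, against 12% and 11% of all genes. In labelled Dnmt3a,3b over Dicer-null the same 2 members were called in the same directions, against 10.4% higher and 10.8% lower. Both of these comparisons use the same Dicer-null RNAs, and the members were picked with these ratios in view, so nothing is read from the counts.

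**Figure D1:**
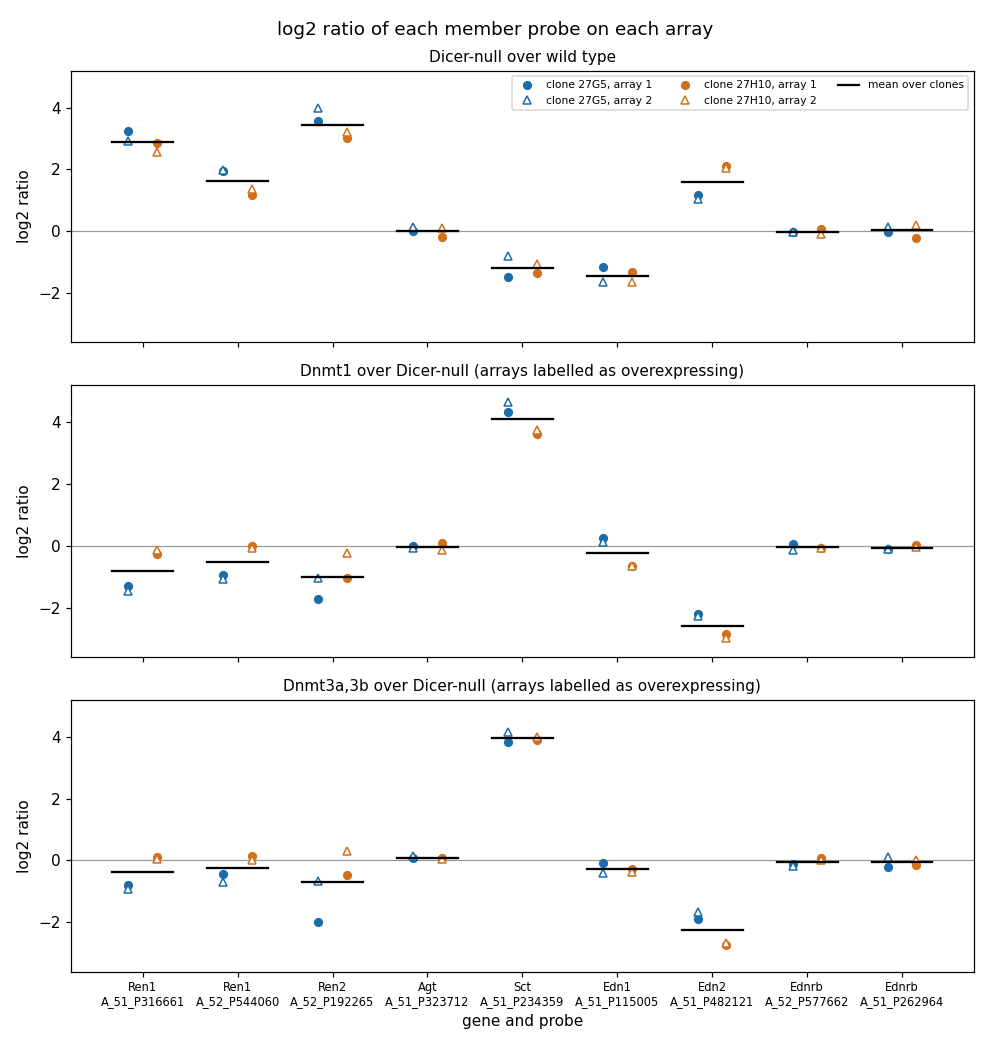
Log2 ratio (vertical axis) of each of the 9 probes (horizontal axis) on each array, with a panel for each comparison, colours for clones, filled circles for arrays numbered 1, open triangles for arrays numbered 2 (dyes exchanged) and a bar for the mean over clones. The renin probes stand above 0 in Dicer-null over wild type, Sct near 4 and Edn2 below -1.6 in both comparisons of labelled Dnmt lines, and Agt and Ednrb near 0 throughout.

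Renin transcripts were far more abundant in Dicer-null than in wild-type cells. The Ren2 probe gave log2 ratios of 3.57 and 3.98 on the 2 arrays of 27G5 and 3.02 and 3.22 on those of 27H10. Its mean was 3.45 ± 0.46 (n = 2), a 10.9-fold difference, and the 7th highest of the 20058 genes. The brighter Ren1 probe, A_51_P316661, gave 3.24 and 2.92 in 27G5 and 2.85 and 2.57 in 27H10, with a mean of 2.89 ± 0.27, or 7.43-fold, the 31st highest. All 4 arrays of both probes were high, and those of 27G5 were above those of 27H10 on each. The second Ren1 probe, A_52_P544060, gave 1.94 and 2.0 in 27G5 and 1.18 and 1.37 in 27H10, with a mean of 1.62 ± 0.49. With Agilent's own log ratio this probe stood at 2.65, and its level in wild-type cells was 6.95 on the log2 scale.

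The lines labelled as overexpressing had less renin signal than their Dicer-null parents in 27G5, and the ratios lay closer to 0 in 27H10. In labelled Dnmt1 over Dicer-null, Ren1 A_51_P316661 gave -1.31 and -1.48 in 27G5 but -0.28 and -0.13 in 27H10, a mean of -0.80 ± 0.84. Ren1 A_52_P544060 stood at -1.0 in 27G5 and -0.02 in 27H10. Ren2 A_52_P192265 gave -1.73 and -1.06 in 27G5 and -1.04 and -0.22 in 27H10, a mean of -0.63 in that clone, and its arrays numbered 1 lay below those numbered 2 in both clones.

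In labelled Dnmt3a,3b over Dicer-null the clones went apart. Ren1 A_51_P316661 gave -0.79 and -0.93 in 27G5 and 0.11 and 0.06 in 27H10. The Ren2 probe gave -2.0 and -0.66 in 27G5 and -0.47 and 0.30 in 27H10. The gap between its 2 arrays of the same RNAs in 27G5 was thus larger than its mean ratio of -0.71 ± 0.88, and the dye orientation moves with this value. Renin stayed high relative to wild type all the same: the sum of the ratios of one clone put labelled Dnmt1 over wild type at 1.68 in 27G5 and 2.50 in 27H10 for Ren1 A_51_P316661, and labelled Dnmt3a,3b over wild type at 2.22 and 2.79.

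The levels of the single channels, in log2 units, showed where the clones differed. For Ren1 A_51_P316661 the highest of the 7 RNAs was 27G5 Dicer-null at 12.40 ± 0.06 (SD over arrays, n = 6 arrays). It was followed by labelled Dnmt3a,3b at 11.58 in 27G5 and 11.32 in 27H10, and by 27H10 Dicer-null at 11.22 ± 0.07. The labelled Dnmt1 lines, at 11.02 in 27G5 and 10.94 in 27H10, overlapped over their arrays. Wild type was lowest at 8.92 ± 0.44 (n = 4 arrays), with 9.13 and 9.41 on the arrays shared with 27G5 and 8.42 and 8.70 on those shared with 27H10. The labels give a single name for the wild-type RNA, and whether it was 1 extract is not stated. The arrays of 27G5 Dicer-null cells thus lay above all those of 27H10, and the labelled Dnmt lines of both clones lay close together.

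**Figure D2:**
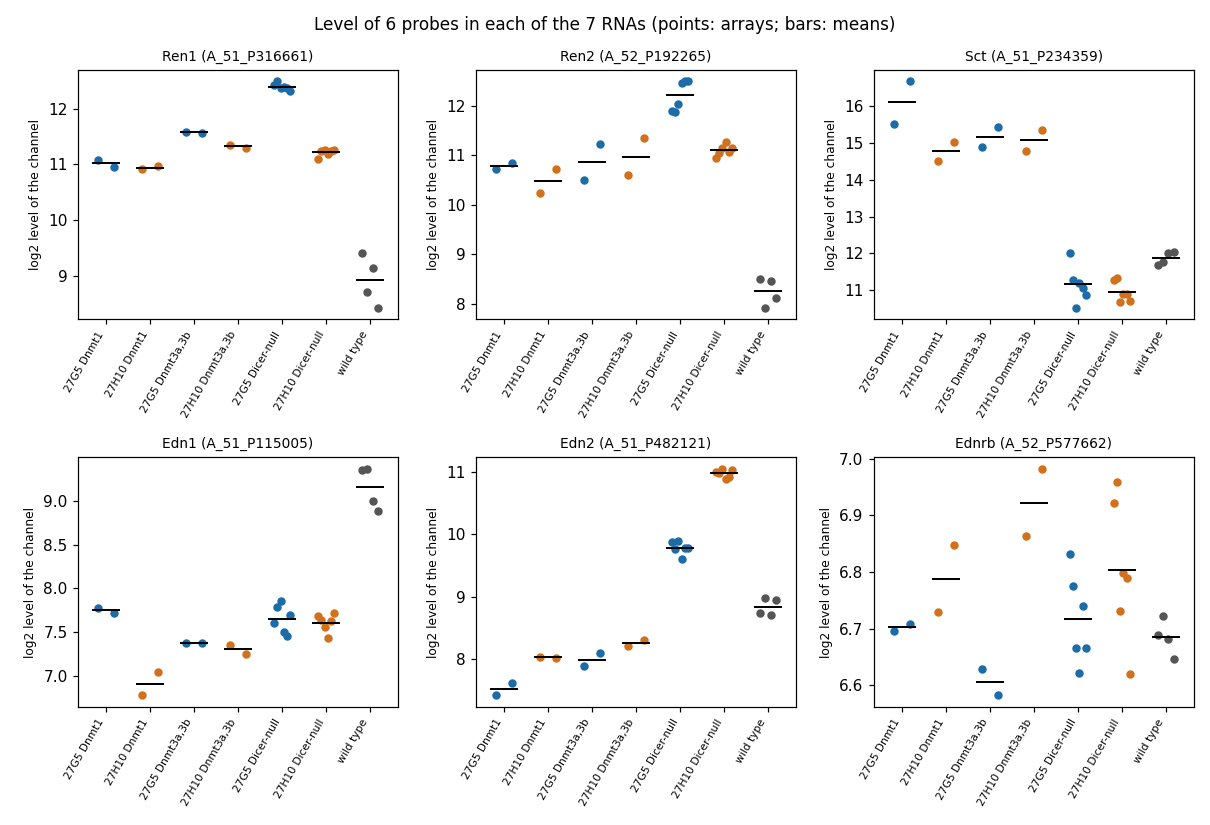
Log2 level of the channel (vertical axis) of 6 probes in each of the 7 RNAs (horizontal axis), with a point for each array and a bar for the mean over arrays. Vertical scales differ between panels, and levels of different probes are not to be compared. Wild type is lowest for the renin probes and highest for Edn1, and the labelled Dnmt lines are highest for Sct and lowest for Edn2.

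Agt, which encodes angiotensinogen, the substrate of renin, had hardly any signal. Its probe A_51_P323712 (chr8:123143932-123143991, minus strand) was not well above background on any array of the labelled Dnmt lines, on 0 of 6 arrays of 27G5 Dicer-null, on 1 of 6 of 27H10 Dicer-null and on 2 of 4 of wild type. Its ratios ran from -0.20 to 0.13 over the 12 arrays, and no fold is given. Agt was thus at or near the limit of detection in every RNA, also in those with high renin.

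Secretin was lower in Dicer-null than in wild-type cells and very much higher in both labelled Dnmt lines than in Dicer-null cells. The probe of Sct, A_51_P234359, lies at chr7:137695602-137695661 on the minus strand. In Dicer-null over wild type it gave -1.48 and -0.82 in 27G5 and -1.36 and -1.05 in 27H10, a mean of -1.18 ± 0.04. In labelled Dnmt1 over Dicer-null it gave 4.34 and 4.67 in 27G5 and 3.63 and 3.76 in 27H10, a mean of 4.10 ± 0.58, or 17.1-fold. In labelled Dnmt3a,3b over Dicer-null it gave 3.84 and 4.15 in 27G5 and 3.89 and 4.01 in 27H10, a mean of 3.98 ± 0.03, or 15.7-fold. The ratios were positive on all 8 arrays with labelled Dnmt lines and negative on all 4 arrays of Dicer-null over wild type. Sct was the 5th highest gene of the labelled Dnmt1 comparison and the 4th highest of the labelled Dnmt3a,3b comparison. The spot was saturated on 1 array, in the channel of labelled Dnmt1 in 27G5, so that value may be too low.

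In levels, Sct stood at 16.11 ± 0.82 in labelled Dnmt1 27G5 and 14.77 ± 0.36 in labelled Dnmt1 27H10 (SD over arrays). In labelled Dnmt3a,3b it stood at 15.16 ± 0.38 in 27G5 and 15.07 ± 0.39 in 27H10. The arrays of labelled Dnmt1 27G5 lay apart, at 15.53, where the spot was saturated, and 16.68. The Dicer-null lines were lowest, at 11.15 ± 0.50 in 27G5 and 10.96 ± 0.28 in 27H10, below wild type at 11.87 ± 0.17 (SD over arrays), though the highest 27G5 array reached the wild-type range. The 2 arrays of labelled Dnmt1 27G5 lay above those of the other labelled lines, which overlapped, as did the Dicer-null clones. The labelled lines were above wild type too, with summed ratios of 3.36 and 2.48 for labelled Dnmt1 and 2.85 and 2.75 for labelled Dnmt3a,3b in 27G5 and 27H10.

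Most of the trophoblast markers that were called moved in the direction of Sct. In Dicer-null over wild type 7 of the 12 measured trophoblast markers fell and 1 rose, and in the labelled lines 7 (labelled Dnmt1) and 8 (labelled Dnmt3a,3b) of 12 rose and 0 fell. Their median log2 ratios were -0.68, 1.23 and 1.31 in these comparisons, against 0.01 over all genes tested in each. Over all genes, 20.1% fell and 20.4% rose in the first, and 12% and 10.4% rose in the others. The summed signal of the 12 markers was 106200 to 274900 on the arrays of the labelled Dnmt lines, 32410 to 65480 in Dicer-null cells and 92420 to 213300 in wild-type cells. The sums of wild type and the labelled lines thus overlapped. Bright markers weigh most in such sums, and single markers differed. In Dicer-null over wild type, Krt18 stood at -2.14 and Gata3 at -0.99. In labelled Dnmt1 over Dicer-null they stood at 2.13 and 3.01. Krt18 was saturated in 4 wild-type, 3 labelled Dnmt1 and 4 labelled Dnmt3a,3b channels, and Krt8 in 2 of each, so these sums may be too low. Among the defining markers, Tpbpa was not well above background on any array of the Dicer-null or wild-type RNAs, and Cdx2 on none of 27G5 Dicer-null. Whether a change in the kinds of cells in the cultures takes part in the Sct ratios was not tested, and in bulk RNA fewer cells of a type and less RNA per cell cannot be told apart. Among the genes whose 6 ratios lay closest to those of Sct were Rhox6 (distance 1.61, r = 0.99), a homeobox gene of the placenta, and Prl2c3 (1.86, r = 1.00), a placental prolactin-family hormone. Distance is Euclidean over 6 log2 ratios, which share RNAs, and r is given as a description.

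The endothelin peptides went opposite ways in Dicer-null cells. Edn2, read by probe A_51_P482121 at chr4:119607055-119607114 on the plus strand, gave 1.19 and 1.05 in 27G5 and 2.12 and 2.06 in 27H10 for Dicer-null over wild type. Its mean was 1.60 ± 0.69, with 27H10 above 27G5 by more than the gap between the arrays of a clone. Edn1, the main vasoconstrictor of the family, was read by probe A_51_P115005 at chr13:41748495-41748554 on the plus strand. It gave -1.15 and -1.66 in 27G5 and -1.33 and -1.65 in 27H10, a mean of -1.45 ± 0.06, or 2.73-fold lower. All 4 arrays of Edn2 lay above 0 and all 4 of Edn1 below.

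Edn2 was much lower in both labelled Dnmt lines than in their Dicer-null parents. In labelled Dnmt1 over Dicer-null it gave -2.20 and -2.28 in 27G5 and -2.86 and -3.0 in 27H10, a mean of -2.59 ± 0.49, or 6.00-fold lower, the 3rd lowest of all genes tested. In labelled Dnmt3a,3b over Dicer-null it gave -1.91 and -1.68 in 27G5 and -2.72 and -2.69 in 27H10, a mean of -2.25 ± 0.65, or 4.75-fold lower, the 5th lowest. Every array was low, and the 27H10 arrays, whose Dicer-null parent had the most Edn2, were lowest. The levels were 7.51 and 8.02 in labelled Dnmt1 27G5 and 27H10, 7.98 and 8.25 in labelled Dnmt3a,3b, 9.79 ± 0.10 and 10.99 ± 0.06 in the Dicer-null clones and 8.84 ± 0.14 in wild type. Edn2 in the labelled lines thus lay below wild type as well, by summed ratios of -1.12 and -0.84 for labelled Dnmt1 and -0.67 and -0.62 for labelled Dnmt3a,3b. The clone with more renin in its Dicer-null cells, 27G5, was the one with less Edn2.

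Edn1 had ratios of smaller size in the labelled lines than in Dicer-null over wild type. In labelled Dnmt1 over Dicer-null it gave 0.27 and 0.12 in 27G5 and -0.66 and -0.64 in 27H10, so the clones pointed opposite ways. In labelled Dnmt3a,3b over Dicer-null it gave -0.08 and -0.42 in 27G5 and -0.26 and -0.39 in 27H10, a mean of -0.29 ± 0.05. Its level was 7.65 ± 0.16 and 7.61 ± 0.10 in the Dicer-null clones, which overlapped, and 9.16 ± 0.24 in wild type, the highest of the 7 RNAs. The lowest was labelled Dnmt1 in 27H10, at 6.91, against 7.75 in 27G5.

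The endothelin receptor gene Ednrb gave no ratio away from 0. Its probe A_52_P577662, at chr14:98247658-98247717 on the minus strand, was well above background on all arrays but dim. The lowest levels flagged as well above background lay at 6.04 to 6.39 over the arrays, so a change may have been missed. The 12 ratios of this probe lay between -0.19 and 0.08 and its mean levels between 6.61 and 6.92 over the 7 RNAs. The ends of that order were both labelled Dnmt3a,3b, whose 2 arrays gave 6.58 and 6.63 in 27G5 and 6.86 and 6.98 in 27H10 and did not overlap. Neighbours in the order overlapped over their arrays, except wild type and the 27G5 line labelled Dnmt3a,3b below it. The other probe, A_51_P262964 at chr14:98249421-98249480, was well above background on no array and did not pass the filter.

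By the same measure of distance, the genes nearest to Ren1 were Ephx2 (0.54, r = 0.99), a soluble epoxide hydrolase, Pla2g7 (0.80, r = 1.00) and Cd99 (1.02, r = 0.98). Nearest to Ren2 were Ren1 (1.04, r = 0.99), C1qtnf9 (1.14, r = 0.98) and Ephx2 (1.24, r = 0.98). Edn2 had Ucma (1.19, r = 0.98), Rtkn (1.25, r = 0.98) and Nsg2 (1.27, r = 0.97), and Edn1 had Smim11 (0.34, r = 0.98), Wnt10a (0.34, r = 0.98) and Gdap1l1 (0.36, r = 0.98). Those of the flat genes were themselves flat: Olfr247, Tm4sf4 and Olfr1342 for Agt, and Lpcat2b and Cdh16 for Ednrb. Each of these lies on another chromosome than its member, except Ren1 beside Ren2.

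The nearest measured genes on either side of each member, by order in the RefSeq table, took no part in the choice of members and were tested. Of these 12 neighbours, 4 rose and 2 fell in Dicer-null over wild type, and 2 rose and 1 fell in each comparison of the labelled Dnmt lines. Over all genes tested 20.4% rose and 20.1% fell in the first, 12% and 11% in labelled Dnmt1, and 10.4% and 10.8% in labelled Dnmt3a,3b. With only 12 neighbours, nothing is read from the counts in either direction. Both neighbours of Ren1 rose in Dicer-null cells. Kiss1, which encodes the peptide kisspeptin, rose by 1.96 ± 0.62 (adjusted p = 0.0155), and Etnk2, an ethanolamine kinase, rose by 1.66 ± 0.13 (adjusted p = 0.000294). Etnk2 was called under all 15 alternatives. The Kiss1 call was lost without 27G5 (1.52, adjusted p = 0.159) and without 27H10 (2.40, adjusted p = 0.0637).

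Drd4, a dopamine receptor gene next to Sct, went the way of Sct in each comparison. It fell by 1.02 ± 0.21 in Dicer-null over wild type (adjusted p = 0.0304), rose by 1.80 ± 0.81 in labelled Dnmt1 (adjusted p = 0.0113) and rose by 1.33 ± 0.29 in labelled Dnmt3a,3b over Dicer-null (adjusted p = 0.0248). With the RNAs shared between ratios modelled, its adjusted p was 0.376, 0.126 and 0.22. Without either clone, Drd4 was called in labelled Dnmt1 alone, with 0.0172 without 27G5 and 0.00867 without 27H10. Cdhr5, on the other side of Sct, stood at 0.33 ± 0.21 and 0.34 ± 0.03 in the labelled lines and was not called (adjusted p = 0.0541 and 0.0514).

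Foxo6, a forkhead transcription factor gene next to Edn2, went the way of Edn2 on a smaller scale. It rose by 0.91 ± 0.14 in Dicer-null over wild type (adjusted p = 0.00385) and fell by 0.54 ± 0.0025 and 0.69 ± 0.35 in labelled Dnmt1 and labelled Dnmt3a,3b over Dicer-null (adjusted p = 0.0373 and 0.02). With shared RNAs modelled its adjusted p was 0.133, 0.291 and 0.201, and the calls in the labelled lines were lost without either clone, as was that in Dicer-null cells without 27H10 (adjusted p = 0.0615). Hivep3, on the other side, lay between -0.07 and 0.02 in the 3 comparisons. Hivep1, before Edn1, rose in all 3 (0.47, 0.50 and 0.60, adjusted p = 0.02, 0.0287 and 0.0181), unlike Edn1, and lost these calls with shared RNAs modelled (adjusted p = 0.221, 0.168 and 0.128). Slain1, before Ednrb, fell by 1.28 ± 0.56 in Dicer-null cells (adjusted p = 0.0226, and 0.119 with shared RNAs modelled), while the dim Ednrb probe was flat. Leaving out either clone ended the Slain1 call (adjusted p = 0.0578 without 27G5 and 0.222 without 27H10), and that of Hivep1 stood without 27G5 in labelled Dnmt1 alone (adjusted p = 0.02). No test was made of whether neighbours move together more than other genes.

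**Figure D3:**
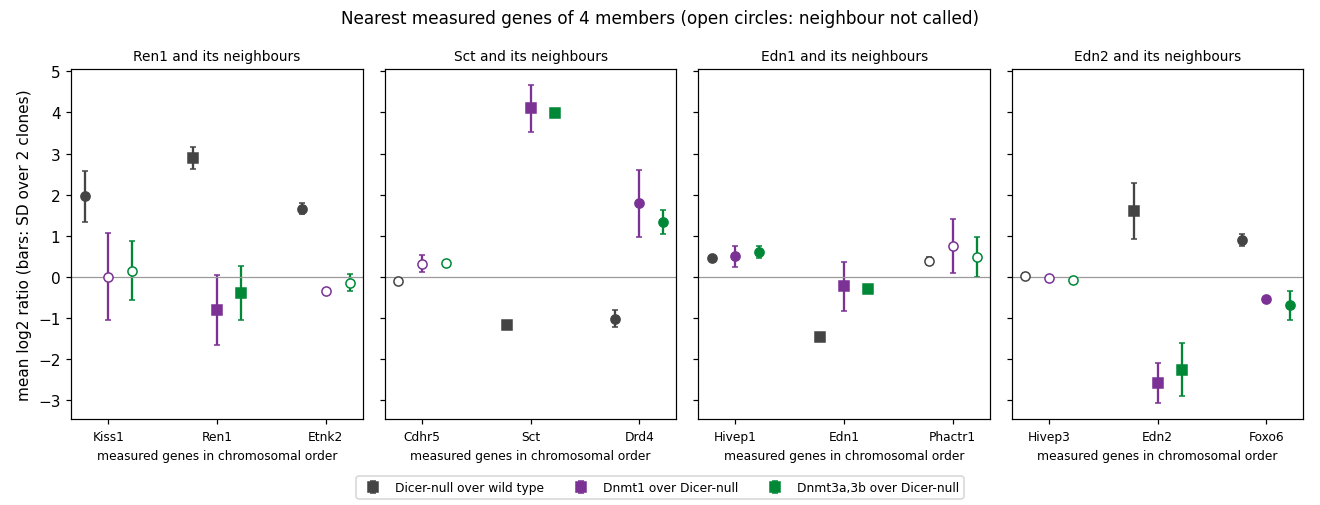
Mean log2 ratio (vertical axis, bars for the SD over 2 clones) of 4 members (squares) and of the nearest measured gene on each side (circles, filled where called), in chromosomal order, with a colour for each comparison. Kiss1 and Etnk2 stand above 0 with Ren1 in Dicer-null over wild type, and Drd4 and Foxo6 each follow the direction of the member beside them.

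The other genes of the same pathways were taken from 4 lists of 96 genes in all, of which 66 were measured. Of these, 15 rose and 17 fell in Dicer-null over wild type, 5 rose and 8 fell in labelled Dnmt1, and 4 rose and 7 fell in labelled Dnmt3a,3b over Dicer-null. Over all genes tested, 20.4% rose and 20.1% fell, 12% rose and 11% fell, and 10.4% rose and 10.8% fell in these comparisons. The counts of calls were 15 without 27G5 and 16 without 27H10 in the first comparison, 12 and 7 in the second, and 0 and 0 in the third. With shared RNAs modelled they were 8, 1 and 1.

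In the renin-angiotensin list, 6 of 18 measured genes rose and 4 fell in Dicer-null over wild type, with a median of 0.10 against 0.01 over all genes tested. These are 33.3% and 22.2% of the list, against 20.4% and 20.1% of all genes. Agtrap, which binds the angiotensin receptor and promotes its uptake, rose by 1.24 ± 0.0006 (adjusted p = 0.000742). Prep, a prolyl endopeptidase that cuts angiotensin, rose by 1.09 ± 0.12 (adjusted p = 0.000482), and Ctsa, a lysosomal carboxypeptidase, by 1.02 ± 0.04 (adjusted p = 0.00146). These 3 were called under all 15 alternatives, though other probes of Agtrap gave -0.02 to 1.1 and those of Ctsa 0.17 to 1.1. Ace, the converting enzyme that acts after renin, stood at 0.47 ± 0.41 and was not called (adjusted p = 0.0545). In the labelled Dnmt lines only Rnpep, an aminopeptidase, was called, at 0.84 ± 0.29 in labelled Dnmt1 (adjusted p = 0.0157) and 0.77 ± 0.33 in labelled Dnmt3a,3b (adjusted p = 0.0203), where 1 of 18 rose and 0 fell in each (5.56%, against 12% and 10.4% of all genes higher). The Rnpep calls were lost with shared RNAs modelled (adjusted p = 0.0832 and 0.105). Klk1 was not called by its brighter probe (-0.06 in labelled Dnmt1 and -0.20 in labelled Dnmt3a,3b). Its other probe, which did not stand for the gene, gave -1.36 and -1.28.

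In the secretin and calcitonin peptide family, 9 of 22 measured genes fell and 2 rose in Dicer-null over wild type, with a median of -0.22. These are 40.9% and 9.09% of the list, against 20.1% lower and 20.4% higher over all genes. Calcr, the calcitonin receptor, fell by 2.72 ± 0.03 (adjusted p = 0.000104), although its other probe gave -0.66. Ramp3, a receptor activity-modifying protein that partners such receptors, fell by 1.87 ± 0.27 (adjusted p = 0.000262). Crhr2, a receptor for urocortins, rose by 1.3 ± 0.09 (adjusted p = 0.00207). The opposite was seen for Crhr2 in the labelled lines, where it fell by 1.20 ± 0.44 (labelled Dnmt1, adjusted p = 0.00741) and 1.44 ± 0.14 (labelled Dnmt3a,3b, adjusted p = 0.00536). Ramp2 fell by 1.99 ± 0.32 and 1.88 ± 0.41 (adjusted p = 0.00625 and 0.00748), and Calca, which encodes calcitonin and CGRP, fell by 1.56 ± 0.81 and 1.12 ± 0.15 (adjusted p = 0.0146 and 0.0358). In these comparisons 2 of 22 rose and 3 fell (labelled Dnmt1) and 1 rose and 3 fell (labelled Dnmt3a,3b), and most of the family was not called. The 3 that fell are 13.6% of the list, against 11% and 10.8% of all genes. Those that rose are 9.09% and 4.55%, against 12% and 10.4%. With shared RNAs modelled, Calcr and Ramp3 kept their calls in Dicer-null over wild type and Ramp2 its calls in the labelled lines (adjusted p = 0.042 and 0.0464), and those of Crhr2 and Calca were lost. Ramp3 was also called higher in labelled Dnmt1 (0.48, adjusted p = 0.0297), a call lost with shared RNAs modelled (adjusted p = 0.285). Sctr, the secretin receptor, was not among the measured genes.

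Of the 11 measured genes of endothelin processing, reception and signalling, 2 rose and 2 fell in Dicer-null over wild type, and 2 rose and 1 fell in each comparison of the labelled lines. The 18.2% each way in the first is near the 20.4% and 20.1% over all genes, and the 18.2% and 9.09% in the labelled lines stand against 12% and 11% (labelled Dnmt1) and 10.4% and 10.8% (labelled Dnmt3a,3b). Ece1, the main enzyme that cuts big endothelin to its active form, fell in all 3, by 0.85 ± 0.03, 1.04 ± 0.27 and 0.81 ± 0.32 (adjusted p = 0.00623, 0.00849 and 0.0163). Ece2, a related enzyme, rose by 0.93 ± 0.40 in labelled Dnmt1 and 0.74 ± 0.38 in labelled Dnmt3a,3b (adjusted p = 0.0251 and 0.0468). Furin, a proprotein convertase, rose by 0.49 ± 0.02 and 0.43 ± 0.24 there (adjusted p = 0.0227 and 0.0332). In Dicer-null cells Gnaq, a G protein subunit that couples to endothelin receptors, rose by 0.53 ± 0.01 (adjusted p = 0.0075) and Ednra, the other endothelin receptor, fell by 0.36 ± 0.02 (adjusted p = 0.0286). None of these calls held with shared RNAs modelled, where adjusted p ran from 0.0603 to 0.274. The medians of the list were 0.10, 0.12 and 0.21, against 0.01 over all genes tested in each comparison.

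Among 15 measured genes of other vasoactive peptides, 5 rose and 2 fell in Dicer-null over wild type, and 0 rose while 4 and 3 fell in labelled Dnmt1 and labelled Dnmt3a,3b over Dicer-null. In Dicer-null cells these are 33.3% and 13.3%, against 20.4% and 20.1% of all genes, and in the labelled lines 26.7% and 20% fell, against 11% and 10.8%. The 0 that rose there stand against 12% and 10.4% of all genes. Kng1, the precursor of bradykinin, rose by 0.79 ± 0.23 (adjusted p = 0.00282) in Dicer-null cells and fell by 0.87 ± 0.12 and 0.60 ± 0.03 in the labelled lines (adjusted p = 0.0064 and 0.0164). Kng2 fell by 0.36 ± 0.05 in labelled Dnmt3a,3b (adjusted p = 0.0426). Its probe was well above background on 0 of 4 arrays of that line and 3 of 4 of its Dicer-null reference, so the size is uncertain. Npr3, the clearance receptor of natriuretic peptides, rose by 0.75 ± 0.25 (adjusted p = 0.00389) and fell by 0.66 ± 0.12 in labelled Dnmt1 (adjusted p = 0.014). Nos1, a nitric oxide synthase, fell by 0.64 ± 0.15 and 0.61 ± 0.16 in the labelled lines (adjusted p = 0.0116 and 0.0135). Nppb, which encodes brain natriuretic peptide, rose by 0.89 ± 0.11 in Dicer-null cells (adjusted p = 0.0128). The calls of these genes were lost with shared RNAs modelled, at adjusted p from 0.0771 to 0.316.

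**Figure D4:**
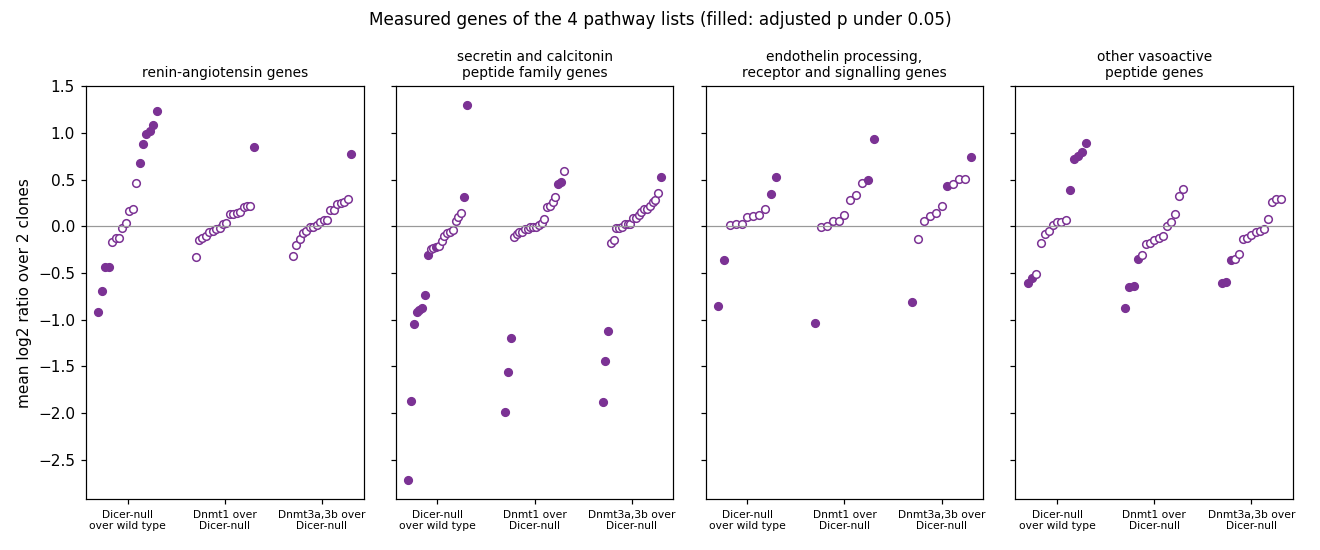
Mean log2 ratio over 2 clones (vertical axis) of the 66 measured genes of the 4 lists, a panel each, by comparison (horizontal axis) and sorted within each, filled where the adjusted p was under 0.05. Members are not drawn, and most of the renin-angiotensin genes lie near 0 in the labelled Dnmt lines.

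Other marker lists moved with the Dicer-null comparison as well. Of 9 measured fibroblast markers 7 fell and 1 rose, and of 8 primitive endoderm markers 4 fell and 0 rose, while 6 of 8 ES cell markers rose and 0 fell, against 20.4% higher and 20.1% lower over all genes. The summed signal of the fibroblast markers was 13040 to 19650 on the arrays of Dicer-null cells and 24240 to 31410 on those of wild-type cells, with Postn not well above background on any Dicer-null array. Of 6 markers of endothelium, a tissue known to express Edn1, 2 rose (Pecam1 and Kdr), 0 fell and 4 were not called. The summed signal of the 6 was 3935 to 5405 in Dicer-null cells and 2158 to 2531 in wild-type cells. Pecam1 and Kdr rose by 1.87 and 1.67, while Tek, Esam, Cdh5 and Tie1 stood at -0.42, -0.06, 0.06 and -0.05. Cdh5 was not well above background on any array of wild-type or 27H10 Dicer-null RNA. Of 5 neural crest and melanocyte markers 2 rose and 1 fell. Their part in the ratios of the renin and endothelin genes was not tested.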

How the data were processed

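The deposited scanner files held the mean and background intensity of each spot and the scanner's log10 ratio, made with Agilent Feature Extraction 9.5.1.1 (arrays with labelled Dnmt lines) and 9.1.3.1 (arrays with wild-type RNA), per the file headers. The authors' deposited table of processed values held log2 ratios, already turned to first-named over reference (r 0.968 to 1.00 with the turned scanner ratios). Column medians of that table ran from -0.14 to 0.17, and how it was centred is not stated. No per-sample column was left unused. Other upstream steps are not given in the sources used here.

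From the intensities, limma's normexp (offset 50) corrected the background, and a loess fit within each array normalised the ratios, with limma 3.58.1 (R 4.3.3, statmod 1.5.0). Control and outlier spots were left out, spots of a probe averaged, arrays turned to 1 direction and the dye-swapped arrays of a pairing averaged, which gave 6 ratios. A probe passed when present on all 12 arrays and well above background on both arrays of at least 1 RNA in a pairing, which 8 of the 9 member probes did. The brightest passing probe stood for a gene. Symbols came from RefSeq (GRCm38.p6) for 22951 probes and from the array design for 18223. The 6 ratios were fitted together with lmFit and eBayes (1 coefficient per comparison, 3 residual degrees of freedom), and a gene was called at a two-sided Benjamini-Hochberg adjusted p under 0.05 over all 20058 genes. The wild-type arrays were treated as 1 control RNA, whose own spread p leaves out, and since no label names separate cultures within a clone, p measures the spread between these samples. Levels are single-channel log2 values after loess and Aquantile normalisation. Alternatives covered the background correction, centring, scaling, dim-probe filter, probe choice, single dye orientations, each clone left out, the authors' value table, a replicate block and the shared RNAs. The fit was tested on simulated data. The array numbers mark dye orientations of the same RNAs and were averaged, not used as replicates.

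Members and lists were chosen with earlier results of these data known. The named genes were all member probes, the targeted genes, up to 3 called genes of largest ratio per list and comparison, the nearest measured gene on each side of a member, and the 3 genes nearest in pattern, some of which are not reported here. Ace, Klk1, Sctr and the cell type markers were named outside that rule. Precision is limited by the 2 clones of each comparison and by the RNAs shared between ratios.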

Additional observations from a re-analysis of the deposited data

Results flagged for a closer look

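Both arrays of 27G5 went one way and both of 27H10 the other for 7 of the values of members and their neighbours. The values below are the ratio of 27G5 minus that of 27H10, and none of these differences was tested. For Ren1 in labelled Dnmt3a,3b over Dicer-null it was -0.94 by A_51_P316661 and -0.67 by A_52_P544060. For Edn1 in labelled Dnmt1 over Dicer-null it was 0.84. For Kiss1, next to Ren1, it was -1.49 in labelled Dnmt1 and -1.02 in labelled Dnmt3a,3b over Dicer-null, the same direction as at Ren1. For Ednrb A_52_P577662 it was -0.20 in labelled Dnmt3a,3b, and for 4930432J09Rik, next to Ednrb, it was -0.13 in labelled Dnmt1. Clones and slides cannot be told apart in these comparisons. In all, 20 of 261 values of members, neighbours and listed genes were of opposite sign in this way. The share over all genes tested was not counted, so nothing is read from these counts. Of 27 groups of 4 or 6 arrays of the same RNA, none of the member levels held a single array far from the rest.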

How the results depend on the processing

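Of 324 recomputed values of the 9 member probes, 261 stayed within 1 SD of the clones, 63 moved further, and no member value that had been called reversed in sign. Sct in labelled Dnmt3a,3b, whose clones lay close together, moved by more than their SD to 4.02 with median centring, 4.11 with scaling between arrays, 4.01 in the authors' value table, and 3.87 and 4.08 with arrays numbered 1 or 2 alone. Edn2 in labelled Dnmt1 stood at -3.16 with Agilent's log ratio and -3.15 in the authors' value table. With a single clone, Ren2 in Dicer-null over wild type ran from 3.12 to 3.77, Sct from 3.69 to 4.51 in labelled Dnmt1 and 3.95 to 4.0 in labelled Dnmt3a,3b, and Edn2 from -2.93 to -2.24 and -2.71 to -1.79.

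The counts of called genes depended on how the clones and shared RNAs were treated. In Dicer-null over wild type, labelled Dnmt1 and labelled Dnmt3a,3b, 8110, 4618 and 4255 genes were called, and 32, 13 and 11 of the listed genes. With shared RNAs modelled these were 1943, 472 and 384 genes and 8, 1 and 1 listed genes, every one of the genes also called without that step. With 1 clone left out, limma called 3120 to 3486, 2332 to 4698 and 0 to 4 genes, and 15 to 16, 7 to 12 and in both cases 0 listed genes, with the lone ratio assumed to vary like the others. For labelled Dnmt3a,3b the unadjusted p was under 0.05 for 4562 genes without 27G5 and 4662 without 27H10, 10 listed genes in each, and the cause was not tested. With the replicate block (dye orientation as a term, 12 arrays, pairing of RNAs as a random block) the counts were 9400, 6668 and 6409 genes and 33, 18 and 16 listed genes, and the member ratios were the same. Arrays numbered 1 alone called 6483 genes and 19 listed genes in labelled Dnmt3a,3b. The other alternatives kept each count within 1.5 times. Dim signal limits Agt and the second Ednrb probe, which lay at background, and the first Ednrb probe, which lay little above it.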
